A study of Sus scrofa with 9 samples.

Results

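The comparison described here is that of porcine granulosa cells (PGCs) kept for 12 h in medium with 100 μM H2O2 (LOS) with PGCs kept for 12 h without H2O2 (CON), by small RNA sequencing. It takes 6 of the 9 libraries of the series, 3 of LOS and 3 of CON. The libraries treated at 300 μM (MOS) are not compared with either group, and enter only where the spread is taken from all 9 libraries. Both groups were primary cells from ovaries of LandracexYorkshire crossbred sows, cultured with serum and antibiotics, and H2O2 was the labelled difference between them. Of the 1345 entries in the deposited table, 662 reached a normalized count of 10 or more in 3 or more of the 6 libraries and were examined. Whether the 3 libraries of a group came from separate cultures or animals was not stated, so every p-value below measures the spread between these libraries.

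Granulosa cells surround the oocyte in the follicle, make estradiol under FSH, and die by apoptosis when a follicle becomes atretic. H2O2 is a reactive oxygen species that crosses membranes, and it is used on cultured cells as a model of oxidative stress. A miRNA gene is read into a hairpin that DROSHA and DICER cut into a duplex. One strand of the duplex, from the 5' arm (5p) or the 3' arm (3p), is usually kept by an Argonaute protein and the other, the lesser strand, is mostly lost. The kept strand finds its mRNA targets chiefly through the seed, bases 2 to 8 from its 5' end, so miRNAs with 1 seed form a family.

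Each entry is 1 sequence of 18 to 26 nt. Its name gives the species of the reference miRNA (ssc for pig, hsa for human), L or R followed by the number of bases gained or lost at the 5' or 3' end, ss for a substitution, p5 or p3 for an arm predicted from the hairpin, and PC for a predicted candidate with no reference name. The 662 entries held 605 sets of values, since 103 entries shared all 6 values with another entry. Normalized counts summed to 5701572 to 6098582 in LOS and to 5578704 to 6084944 in CON, and the steps between low values put the depth at about 6426719 to 8382479 reads in LOS and 4413882 to 6743136 in CON, lowest in CON1. Few values lay under those of 4 reads, so a listed 0 stands for fewer than about 4 reads and not for absence. Correlations of log2 values were 0.991 to 0.995 within LOS, 0.986 to 0.992 within CON and 0.973 to 0.988 between the groups.

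The sequences the results turn on are printed here from the deposited table, 5' to 3' in DNA letters, with the seed in capitals, grouped to show which called entries share a seed. miR-192 and miR-215 have 1 seed, and so have both miR-194 entries and the 3p strands of miR-132 and miR-212.
ssc-miR-192: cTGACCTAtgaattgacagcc
ssc-miR-215_R+1: aTGACCTAtgaattgacagaca
ssc-miR-194a_R+2: tGTAACAGcaactccatgtggaa
ssc-miR-194b-5p_1ss10GA: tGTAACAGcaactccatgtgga
ssc-miR-132: tAACAGTCtacagccatggtcg
hsa-miR-212-3p_R+1: tAACAGTCtccagtcacggcca
miR-200c and miR-141 of the miR-200 family had seeds that differ, and so had the members of the miR-183 cluster, which resemble each other near the 5' end.
hsa-miR-200c-3p: tAATACTGccgggtaatgatgga
hsa-miR-141-3p_R+1: tAACACTGtctggtaaagatggc
ssc-miR-96-5p: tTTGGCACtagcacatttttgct
ssc-miR-182: tTTGGCAAtggtagaactcacact
ssc-miR-183_R-1: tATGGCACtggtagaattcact
The next 4 are lesser strands, of which those of miR-27a and miR-27b resemble each other and moved in opposite directions.
hsa-miR-222-5p_L+2R-1: gGCTCAGTagccagtgtagatcc
hsa-miR-27a-5p: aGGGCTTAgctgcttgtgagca
ssc-miR-27b-5p_R-1: aGAGCTTAgctgattggtgaac
hsa-miR-26a-1-3p: cCTATTCTtggttacttgcacg
The last pair shows that an entry named for an arm of the mir-24-1 hairpin does not hold the seed of miR-24-3p.
sha-mir-24-1-p3_1ss2GC: tCGATTGGacccgccctccg
ssc-miR-24-3p: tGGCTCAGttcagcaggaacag

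At 100 μM H2O2 the miRNAs that differed were mostly higher than in CON, and they were of middle or low level. Of the 662 entries, 44 (6.65%) passed an adjusted p of 0.05 in limma on log2 of the normalized count plus 1, and these are the calls below. In LOS 37 (5.59%) were higher, 21 of them at least 2-fold, and 7 (1.06%) were lower, 2 of them at least 2-fold. The called rises together held 0.314% ± 0.0040 of the normalized total in LOS and 0.196% ± 0.018 in CON (SD, n = 3 each), and the called falls 0.0178% ± 0.00038 in LOS and 0.0318% ± 0.0012 in CON. The median log2 difference over all 662 entries was -0.0043 and the median size of a difference 0.16, so most entries hardly moved. All 3 LOS values lay outside the range of the 3 CON values in 145 entries (21.9%), 87 above it and 58 below. In these cultures a miRNA made by fewer cells and one made at a lower level per cell cannot be told apart.

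**Figure D1:**
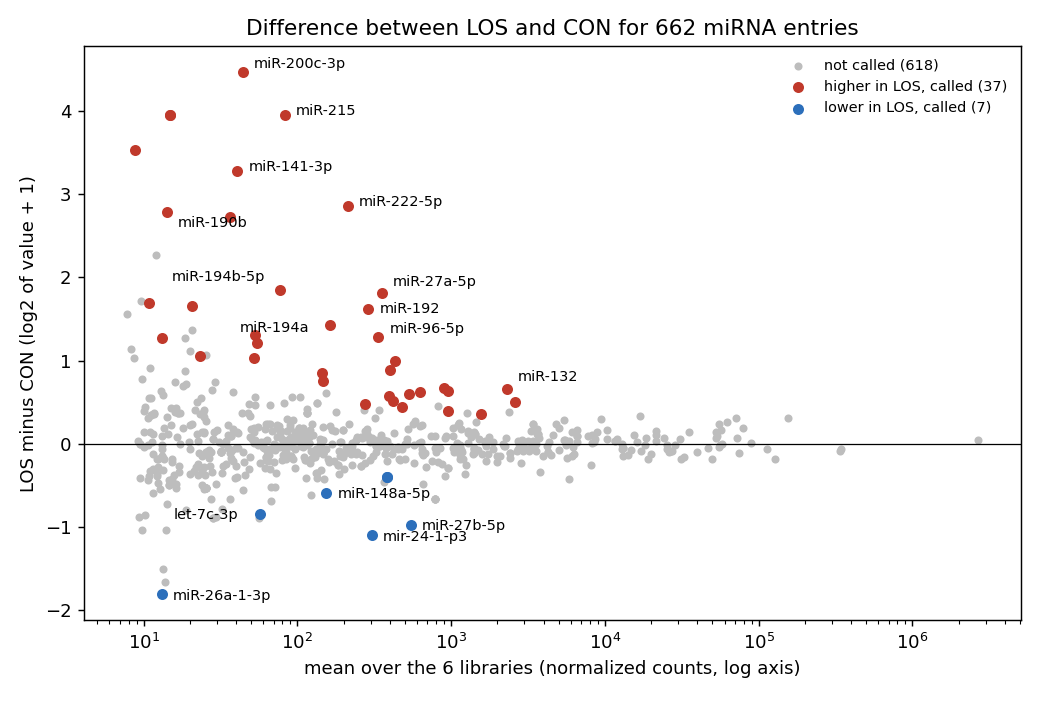
Difference between LOS and CON on the log2 scale (vertical) against the mean normalized count over the 6 libraries (horizontal, log axis) for 662 entries, each a point, coloured by call. The called rises lie between 0.35 and 4.47 and the called falls between -1.81 and -0.39, and none of the 57 entries with a mean over 10000 is called.

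The number of calls moved with the libraries used. It was 25 without LOS1, 28 without LOS3, and 33 or 34 without LOS2, CON1, CON2 or CON3, and 24 of the 44 were called in all 6 of these fits. With the spread taken from all 9 libraries 19 calls were left, all of them among the 44. Calls that held with each library left out but not with that spread were those of ssc-miR-132, hsa-miR-212-3p_R+1, ssc-miR-129a-3p, ssc-miR-139-5p_R+1, ssc-miR-155-3p_L+1, ssc-miR-182, hsa-miR-1248_R-6 and mmu-miR-3535_1ss20CT (adjusted p 0.0523 to 0.331). Of the 11 entries that were under 10 in all CON libraries and so were examined only because LOS was high, 7 were called, and they are marked below as such. Called entries with some but not all CON values at 10 or more also needed their LOS values to be examined. These were ssc-miR-215_R+1, hsa-miR-141-3p_R+1, ssc-miR-139-3p and PC-5p-9551_196. Of the 2 that were under 10 in all LOS libraries, 1 was called.

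The miR-192 and miR-194 families rose as a whole. These miRNAs are best known from liver and gut and as targets of p53 that restrain the cell cycle, and their genes form a pair of clusters: in the Sscrofa11.1 annotation MIR192 lies beside MIR194A, and MIR215 beside MIR194B. ssc-miR-192 had 416, 484 and 415 normalized counts in LOS, against 153, 131 and 142 in CON (log2 difference 1.62, SE 0.11, adjusted p = 1.94e-05). ssc-miR-215_R+1, with the same seed, had 152, 179 and 135 normalized counts in LOS, against 16.4, 5.36 and 8.12 in CON (log2 difference 3.95, SE 0.33, adjusted p = 4.22e-05). Both groups lay wholly apart, and miR-215 had the larger ratio from the lower level. ssc-miR-215_R+1 was examined only because LOS was high. ssc-miR-194a_R+2 had 241, 239 and 238 normalized counts in LOS, against 92.3, 88.8 and 83.0 in CON (log2 difference 1.43, SE 0.11, adjusted p = 2.85e-05), values that barely varied within a group. ssc-miR-194b-5p_1ss10GA, whose sequence is that of miR-194a without its last base, had 111, 121 and 133 normalized counts in LOS, against 31.6, 31.7 and 36.1 in CON (log2 difference 1.84, SE 0.15, adjusted p = 3.41e-05). The ss in its name marks a substitution against the miR-194b reference, so by sequence it is a shorter form of the miR-194a entry. It is not shown to come from a gene of its own, and reads of the pair were not assigned here. All 4 calls held in each fit with 1 library left out and with the spread from all 9 libraries.

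Other p53-responsive miRNAs moved less. Of 17 examined entries on that list 5 rose, 0 fell and 8 had groups that did not overlap, with a median log2 difference of 0.38. Over all entries 6.65% were called, 21.9% did not overlap and the median was -0.0043. The list was chosen with earlier results of these data known, so its share is not an independent one. Among the 5 are the entries of miR-192, miR-215 and miR-194 given above, of which miR-215 was examined only because LOS was high. The fifth rise was ssc-miR-34c, from a family that p53 induces and that slows proliferation, with 518, 609.6 and 535 normalized counts in LOS, against 429.7, 361 and 434 in CON (log2 difference 0.44, SE 0.11, adjusted p = 0.0492). This call did not hold without LOS1, LOS2, LOS3, CON1, CON2 or CON3, each left out in turn (adjusted p 0.0725 to 0.157). Its relatives mmu-miR-34b-3p_1ss10CT (log2 difference 0.57, adjusted p = 0.0815) and hsa-miR-34c-3p (0.56, adjusted p = 0.228) lay above CON in all 3 LOS libraries without passing. ssc-miR-34a, the most abundant member of that family here, differed by 0.067 (adjusted p = 0.736), and ssc-miR-145-3p by -0.42 (adjusted p = 0.0667).

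miR-200c and miR-141 rose with some of the largest ratios. In mouse and human they are neighbours in 1 cluster and keep cells epithelial by repressing ZEB1 and ZEB2. Neither matched a gene by name in the RefSeq annotation of the pig used here. hsa-miR-200c-3p had 66.7, 84.8 and 102 normalized counts in LOS, against 0, 4.46 and 9.02 in CON (log2 difference 4.47, SE 0.70, adjusted p = 0.00345), so it was under 10 in all CON libraries and its fitted difference depends on the added 1. hsa-miR-141-3p_R+1 had 71.4, 65.3 and 85.4 normalized counts in LOS, against 6.32, 12.5 and 3.61 in CON (log2 difference 3.28, SE 0.36, adjusted p = 0.000410). Their lesser strands were listed at 0 in all 6 libraries, and so were miR-200b and miR-429, while bta-miR-200a was listed at 8.48 in LOS2 and at 0 elsewhere. miR-200c and miR-141 are among the 5 examined epithelial entries only because LOS was high, and 8 further entries of the list were under the limit. Of the 5, miR-200c and miR-141 rose and 0 fell, with a list median of 0.16. The share called, 40% against 6.65% of all entries, was therefore set by the filter and is not read as a result about the list. The 5 hold no other call. The others were forms of miR-203, a miRNA of skin, of which hsa-miR-203a-3p had 688, 869.8 and 740.2 normalized counts in LOS, against 709, 744 and 689 in CON (log2 difference 0.096, adjusted p = 0.699). hsa-miR-375 was under the limit with 4.08, 7.63 and 3.80 in LOS and 0, 3.57 and 0 in CON. The epithelial entries summed to 958 to 1184 in LOS and to 835 to 900.0 in CON, and whether a few epithelial cells took part in the result was not tested.

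All 3 examined members of the miR-183 cluster rose. The cluster is best known from sensory cells, and it represses FOXO1, as was found in granulosa cells of cattle. MIR183, MIR96 and MIR182 are neighbours in the Sscrofa11.1 annotation. ssc-miR-96-5p had 403, 466 and 566 normalized counts in LOS, against 217, 154 and 215 in CON (log2 difference 1.29, SE 0.17, adjusted p = 0.00103). ssc-miR-183_R-1 had 510.1, 697 and 524 normalized counts in LOS, against 329, 257 and 276 in CON (log2 difference 0.996, SE 0.15, adjusted p = 0.00235), and ssc-miR-182 had 711, 813 and 749.7 normalized counts in LOS, against 555, 440.2 and 482 in CON (log2 difference 0.63, SE 0.11, adjusted p = 0.00765). No LOS value reached down to a CON value in any of the 3. With the spread from all 9 libraries the call of miR-182 was lost, and those of miR-96 and miR-183 were kept. The lesser strands of miR-96 and miR-183 were listed at or under 4.24 in each of the 6 libraries.

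**Figure D2:**
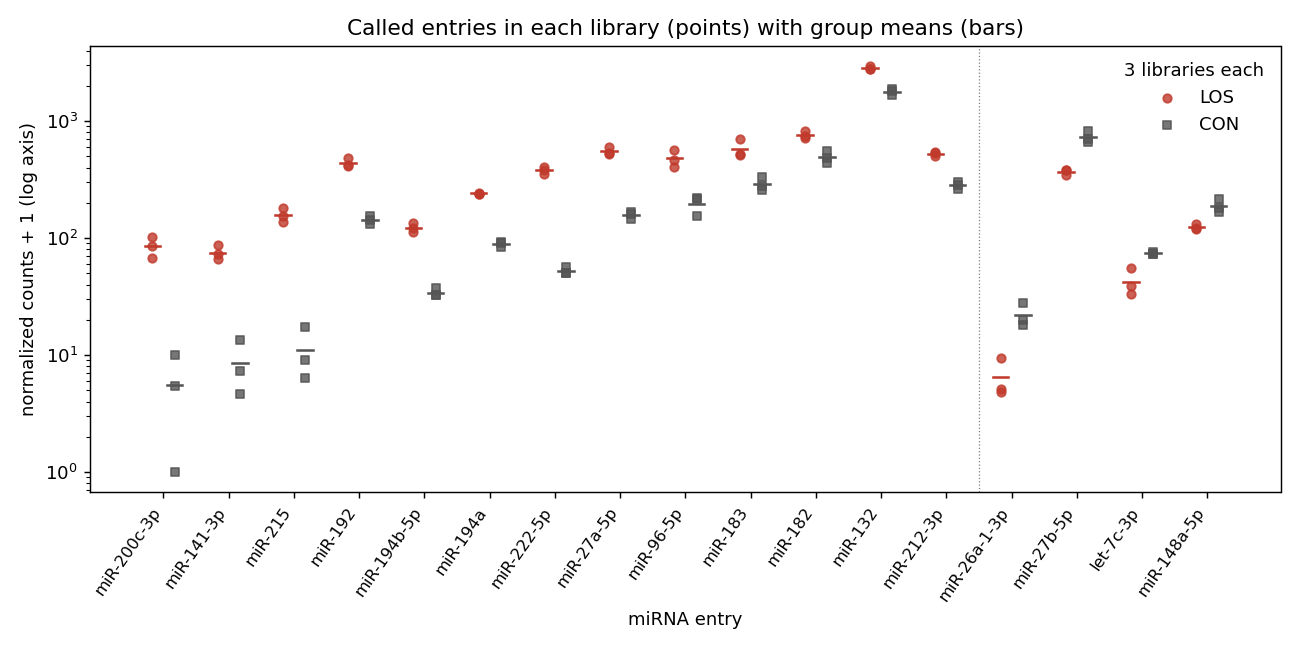
Normalized count plus 1 (log axis) of 17 called entries in each library, LOS as red circles left of CON as grey squares, with a bar at the mean of each group of 3; rises stand left of the dotted line and falls right of it. In none of the 17 do the LOS and CON points overlap, and the CON points of miR-200c, miR-141 and miR-215 lie under 20 and spread more than the LOS points.

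miR-132 and miR-212, which share 1 gene cluster and on their 3p strands 1 seed, rose on 3 of their 4 strands. They are induced through CREB, and in granulosa cells of mouse they follow the LH surge. ssc-miR-132 had 2767, 2938 and 2782 normalized counts in LOS, against 1860.5, 1809.9 and 1683 in CON (log2 difference 0.67, SE 0.084, adjusted p = 0.000963), and hsa-miR-212-3p_R+1 had 503, 539 and 528 normalized counts in LOS, against 282, 302 and 263 in CON (log2 difference 0.89, SE 0.10, adjusted p = 0.000410). The 5p strand of miR-212, ssc-miR-212, had 456, 454 and 514 normalized counts in LOS, against 322, 272 and 365 in CON (log2 difference 0.58, SE 0.13, adjusted p = 0.0218), and its call did not hold without LOS1, LOS3, CON1 or CON2 (adjusted p 0.0161 to 0.0860 over the 6 such fits). hsa-miR-132-5p differed by 0.41 (adjusted p = 0.155), with 404, 334 and 431 normalized counts in LOS, against 260.4, 274 and 347 in CON. With the spread from all 9 libraries none of the 3 calls remained (adjusted p = 0.328 for miR-132, 0.169 for miR-212-3p and 0.916 for miR-212).

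On the list of granulosa and follicle miRNAs 3 of 25 examined entries rose, all 3 from miR-132 and miR-212, and 0 fell, with a median of 0.034 (12.0% called, against 6.65% of all entries). ssc-miR-21_R+1, which keeps granulosa cells of mouse alive and was the most abundant entry, took 44.8 to 46.3% of the total in LOS and 40.5 to 47.5% in CON, and differed by 0.052 (adjusted p = 0.853). ssc-miR-202-5p, a gonad miRNA, had 3948, 3653 and 3966 normalized counts in LOS, against 2979, 3633 and 3623 in CON (log2 difference 0.18, adjusted p = 0.405). Its other strand, ssc-miR-202-3p_R+2, had 29.9, 34.8 and 22.8 normalized counts in LOS, against 5.06, 18.8 and 11.7 in CON (1.37, adjusted p = 0.0932), apart in all libraries but not called. Among 27 entries on the gonadotropin and steroidogenesis list 4 rose and 0 fell, with a median of 0.10 (14.8% called, against 6.65% of all entries). The fourth was hsa-miR-125b-1-3p, a lesser strand, with 1796, 1759 and 1735 normalized counts in LOS, against 1393, 1346 and 1399.6 in CON (log2 difference 0.35, SE 0.081, adjusted p = 0.0272). Its call did not hold without LOS1, LOS2, LOS3, CON1, CON2 or CON3, each left out in turn (adjusted p 0.0712 to 0.117).

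The strongest changes on the lesser strand of a hairpin were those of miR-222 and miR-27a. The main strand of miR-222 lowers p27 and is linked to proliferation, and that of miR-27a is tied to lipid metabolism and to NRF2. hsa-miR-222-5p_L+2R-1 had 377, 353 and 404 normalized counts in LOS, against 49.3, 49.1 and 55.9 in CON (log2 difference 2.85, SE 0.12, adjusted p = 3.99e-07), the smallest adjusted p among the 662 entries. Its partner ssc-miR-222 had 11528, 8826 and 10799.9 normalized counts in LOS, against 7635, 7597 and 10269 in CON (log2 difference 0.29, adjusted p = 0.336), with CON3 above LOS2. The 2 strands of the neighbouring miR-221 hairpin, ssc-miR-221-5p_R-2 (0.46, adjusted p = 0.280) and ssc-miR-221-3p (-0.099, adjusted p = 0.696), did not pass. hsa-miR-27a-5p had 526, 599 and 529.5 normalized counts in LOS, against 144, 167 and 159 in CON (log2 difference 1.81, SE 0.11, adjusted p = 6.65e-06), while its abundant partner ssc-miR-27a differed by 0.19 (adjusted p = 0.339). Both lesser strands kept their calls in every fit with 1 library left out.

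More generally, the larger differences sat on the strand that was the less abundant in CON. For 148 hairpins both arms were examined, each by its most abundant entry. Of the main arms 7 rose and 0 fell, with 0 differences of 2-fold, and of the lesser arms 9 rose and 3 fell, with 8 differences of 2-fold. The median size of a difference was 0.11 for main and 0.15 for lesser arms, and lesser arms had lower counts, whose part in this was not tested. The ratio of the 5p to the 3p arm was called in 4 hairpins (2.7%). It moved toward 5p in miR-222 by 2.56 (SE 0.15, adjusted p = 3.93e-05), in miR-27a by 1.62 (SE 0.15, adjusted p = 0.000676) and in miR-29b by 1.04 (SE 0.15, adjusted p = 0.00865). It moved toward 3p in miR-27b by -0.91 (SE 0.16, adjusted p = 0.0233). The call of miR-29b did not hold without LOS1 (adjusted p = 0.0584) or with all entries of an arm summed (adjusted p = 0.0899). Gene copies of 1 name were joined here, so its 5p entry is that of miR-29b-1 while its 3p entry, ssc-miR-29b, names no copy. The call of miR-27b did not hold without LOS1, LOS3, CON2 or CON3 (adjusted p up to 0.143).

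**Figure D3:**
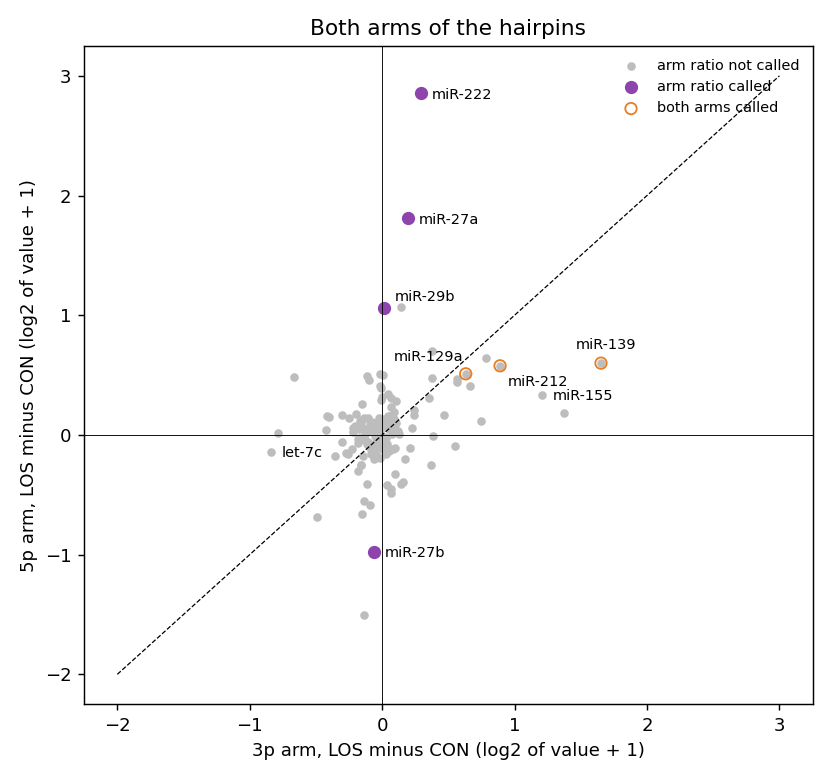
Difference between LOS and CON on the log2 scale for the 3p arm (horizontal) and the 5p arm (vertical) of 148 hairpins, each a point; filled purple points have a called arm ratio, open orange circles have both arms called, and on the dashed line both arms change alike. miR-222, miR-27a and miR-29b stand far above the line near 0 on the 3p axis, and miR-27b far below it.

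In 3 hairpins, miR-129a, miR-139 and miR-212, both arms were called, and in each both rose. miR-139 lies in an intron of PDE2A in human and restrains growth in several tumours. ssc-miR-139-5p_R+1 had 615, 727 and 599 normalized counts in LOS, against 425, 435 and 415 in CON (log2 difference 0.60, SE 0.10, adjusted p = 0.00678), and ssc-miR-139-3p had 38.1, 24.6 and 32.3 normalized counts in LOS, against 10.1, 7.14 and 10.8 in CON (log2 difference 1.65, SE 0.29, adjusted p = 0.00683). The arm ratio of miR-139 did not pass (-1.05, adjusted p = 0.0917), and the call of the 3p arm did not hold without LOS1 (adjusted p 0.0122 to 0.0530 over the 6 such fits). That 3p arm was examined only because LOS was high. ssc-miR-129a-3p, from a family known in neurons, had 1172, 1153 and 1152 normalized counts in LOS, against 753, 759 and 732 in CON (log2 difference 0.63, SE 0.083, adjusted p = 0.00119), with values that differed little within a group. ssc-miR-129a-5p had 479, 524 and 475 normalized counts in LOS, against 315, 358 and 365 in CON (log2 difference 0.51, SE 0.10, adjusted p = 0.0147), and its call did not hold without LOS1, LOS2 or CON1 (adjusted p 0.0290 to 0.0646 over the 6 such fits). hsa-miR-129-1-3p, which has the seed of miR-129a-3p, differed by 0.077 (adjusted p = 0.824).

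The paralogous miR-23a, miR-27a and miR-24-1 cluster and miR-23b, miR-27b and miR-24-2 cluster differed on their lesser strands. In the first, hsa-miR-27a-5p rose as given above, and ssc-miR-24-1-5p rose with 2955, 3055 and 3186 normalized counts in LOS, against 2503, 1893 and 2109.8 in CON (log2 difference 0.51, SE 0.11, adjusted p = 0.0218), a call that did not hold without LOS1, LOS2, LOS3, CON2 or CON3 (adjusted p 0.00671 to 0.0806 over the 6 such fits). hsa-miR-23a-5p, also above CON in all LOS libraries, had 28.6, 28.0 and 48.4 normalized counts in LOS, against 12.6, 19.6 and 15.3 in CON (log2 difference 1.07, adjusted p = 0.0599). In the second, ssc-miR-27b-5p_R-1 fell, with 341, 382 and 379.6 normalized counts in LOS, against 656, 701 and 822 in CON (log2 difference -0.98, SE 0.11, adjusted p = 0.000485), in every fit with 1 library left out. hsa-miR-23b-5p had 319, 350.1 and 262 normalized counts in LOS, against 429.7, 366 and 480.1 in CON (-0.45, adjusted p = 0.0980), and ssc-miR-24-2-5p had 1029, 1255 and 1399 normalized counts in LOS, against 945, 1038 and 1100.0 in CON (0.25, adjusted p = 0.362). So the 23a and 27a lesser strands lay above CON and the 23b and 27b lesser strands below it in all libraries, 1 of each pair past the test. The main strands, which regulate lipid and muscle genes, showed no call: ssc-miR-27b-3p differed by -0.060, ssc-miR-23a_R+1 by 0.14, ssc-miR-23b_R+1 by 0.066 and ssc-miR-24-3p by -0.013. On the list of these miRNAs 2 of 14 rose and 2 fell, with a median of 0.10 (28.6% called, against 6.65% of all entries).

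The other fall from that list was sha-mir-24-1-p3_1ss2GC, with 207, 195 and 180.3 normalized counts in LOS, against 377, 435 and 440.4 in CON (log2 difference -1.10, SE 0.11, adjusted p = 0.000213). Its sequence has neither the seed nor the body of miR-24-3p as printed above, so its value is not read as that of miR-24. The list took it in by its name, so it is 1 of the 14 entries and of the 2 falls counted above. Summed with all forms of that name and arm, which adds miR-24-3p, the difference was -0.018 (adjusted p = 0.923), and over the other settings the call held.

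The remaining falls were lesser strands of let-7c, miR-26a and miR-148a and 2 entries of miR-545. hsa-let-7c-3p had 32.0, 54.3 and 38.0 normalized counts in LOS, against 72.0, 72.3 and 74.9 in CON (log2 difference -0.84, SE 0.20, adjusted p = 0.0345), and its call did not hold without LOS1, LOS3, CON1, CON2 or CON3 (adjusted p 0.00746 to 0.108 over the 6 such fits). Its partner ssc-let-7c, of the family that promotes differentiation, differed by -0.14 (adjusted p = 0.415). hsa-miR-26a-1-3p had 4.08, 8.48 and 3.80 normalized counts in LOS, against 26.5, 18.8 and 17.1 in CON (log2 difference -1.81, SE 0.40, adjusted p = 0.0238), so it was examined only because CON was high, and its call did not hold without LOS1, LOS3, CON1 or CON2 (adjusted p 0.0170 to 0.0835 over the 6 such fits). The lesser strand named for the other miR-26a gene, mmu-miR-26a-2-3p_1ss4GA (-0.18, adjusted p = 0.654), and the main strand ssc-miR-26a (-0.066, adjusted p = 0.736) did not pass. ssc-miR-148a-5p had 119.7, 131 and 119 normalized counts in LOS, against 179, 166 and 213 in CON (log2 difference -0.59, SE 0.13, adjusted p = 0.0218), a call that did not hold without LOS1, LOS3, CON1 or CON3 (adjusted p 0.0226 to 0.0784 over the 6 such fits), and ssc-miR-148a-3p, which represses DNMT1, differed by -0.095 (adjusted p = 0.725). ssc-miR-545-3p_L-1R+1_1 and ssc-miR-545-3p_L-1R+1_2 have sequences that differ in 1 base and shared all values, 336, 307 and 347 normalized counts in LOS, against 434, 421 and 446 in CON (log2 difference -0.39, SE 0.098, adjusted p = 0.0429). Their call did not hold without LOS1, LOS2, LOS3, CON1, CON2 or CON3, each left out in turn (adjusted p 0.0766 to 0.123), and bta-miR-545-3p_R+1, a more abundant form, differed by -0.11 (adjusted p = 0.659).

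Among miRNAs that hold back inflammatory signaling 2 of 10 examined entries rose and 0 fell, with a median of 0.048 (20% called, against 6.65% of all entries). ssc-miR-146b_R+3, a brake on TRAF6 and IRAK1, had 1005, 1063 and 1234 normalized counts in LOS, against 765, 589 and 727 in CON (log2 difference 0.67, SE 0.12, adjusted p = 0.00891), and without the trend in the variance its adjusted p was 0.0508 (range 0.00587 to 0.0508 over all settings tried). Its relative ssc-miR-146a-5p differed by -0.17 (adjusted p = 0.379). ssc-miR-155-3p_L+1, the lesser strand of miR-155, had 67.3, 79.7 and 83.5 normalized counts in LOS, against 27.8, 28.6 and 43.3 in CON (log2 difference 1.21, SE 0.20, adjusted p = 0.00598). The main strand ssc-miR-155-5p_R+2 lay just outside the threshold with 18911, 17487 and 20585 normalized counts in LOS, against 15815, 14533 and 14809 in CON (log2 difference 0.33, SE 0.087, adjusted p = 0.0513), higher in all 3 LOS libraries.

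Single miRNAs of other kinds also rose. hsa-miR-29b-1-5p, the lesser strand of a repressor of collagens, had 31.3, 33.9 and 30.4 normalized counts in LOS, against 12.6, 18.8 and 13.5 in CON (log2 difference 1.06, SE 0.24, adjusted p = 0.0272), and its call did not hold without LOS1, LOS2, LOS3, CON1 or CON3 (adjusted p 0.0235 to 0.0996 over the 6 such fits). ssc-miR-362_R-1 had 1077, 977 and 1185 normalized counts in LOS, against 822, 818 and 816 in CON (log2 difference 0.39, SE 0.098, adjusted p = 0.0429), with CON values that were nearly equal, and its call did not hold without LOS1, LOS3, CON1, CON2 or CON3 (adjusted p 0.0321 to 0.152 over the 6 such fits). ssc-miR-9-2, best known from neural progenitors, had 315, 332 and 308 normalized counts in LOS, against 247, 208 and 232 in CON (log2 difference 0.48, SE 0.11, adjusted p = 0.0257), and its call did not hold without LOS1, LOS2, LOS3, CON2 or CON3 (adjusted p 0.0368 to 0.0865 over the 6 such fits). The entries named for miR-9-3p shared all values, with 113, 158 and 125 normalized counts in LOS, against 103, 106 and 92.9 in CON (log2 difference 0.38, adjusted p = 0.228), apart but not called. ssc-miR-190b had 19.0, 21.2 and 33.2 normalized counts in LOS, against 0, 6.25 and 5.41 in CON (log2 difference 2.78, SE 0.71, adjusted p = 0.0488) and ssc-miR-122_R-2, the main miRNA of hepatocytes, had 20.4, 20.3 and 10.4 normalized counts in LOS, against 6.32, 3.57 and 3.61 in CON (log2 difference 1.69, SE 0.43, adjusted p = 0.0488). Both were under 10 in all CON libraries, and their calls did not hold without LOS1, LOS2 or LOS3, nor that of miR-122 without CON2 or CON3 (adjusted p 0.0154 to 0.195 for miR-190b and 0.0362 to 0.201 for miR-122 over the 6 such fits).

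Several rises besides those of miR-200c and miR-141 belonged to entries with no porcine hairpin in the RefSeq annotation used here, and whether they are fragments of other small RNAs was not tested. mmu-miR-6240_R-6_1ss1CA had 197, 181 and 182 normalized counts in LOS, against 119, 94.6 and 96.6 in CON (log2 difference 0.85, SE 0.13, adjusted p = 0.00264). mmu-miR-3535_1ss20CT had 188, 187 and 178 normalized counts in LOS, against 127, 98.2 and 103 in CON (log2 difference 0.76, SE 0.13, adjusted p = 0.00622), and hsa-miR-1248_R-6 had 80.9, 65.3 and 64.5 normalized counts in LOS, against 37.9, 34.8 and 28.9 in CON (log2 difference 1.03, SE 0.18, adjusted p = 0.00622). These 3 lay apart in all libraries, and with the spread from all 9 libraries the call of miR-6240 was kept and those of miR-3535 and miR-1248 were lost (adjusted p = 0.331 and 0.0611). hsa-mir-1973-p5_1ss5CT and cgr-miR-1973_L+6R+1 are 1 sequence under both names, with 32.0, 28.0 and 23.7 normalized counts in LOS, against 0, 0 and 5.41 in CON (log2 difference 3.95, SE 0.72, adjusted p = 0.00822), under 10 in all CON libraries, and the call did not hold without LOS1 (adjusted p 0.000272 to 0.0530 over the 6 such fits). ssc-miR-4332_L-1_1ss20CA had 95.2, 78.0 and 54.1 normalized counts in LOS, against 22.8, 32.1 and 34.3 in CON (log2 difference 1.30, SE 0.24, adjusted p = 0.00855). The overlapping ssc-mir-4332-p5_1ss18CA had 19.7, 17.0 and 19.9 normalized counts in LOS, against 7.58, 8.93 and 5.41 in CON (log2 difference 1.28, SE 0.33, adjusted p = 0.0488), was under 10 in all CON libraries, and its call did not hold without LOS1, LOS2, LOS3, CON1, CON2 or CON3, each left out in turn (adjusted p 0.0660 to 0.187). Of 41 predicted candidates 2 rose: PC-5p-9551_196 had 63.9, 83.1 and 42.7 normalized counts in LOS, against 8.85, 14.3 and 4.51 in CON (log2 difference 2.72, SE 0.39, adjusted p = 0.00201), and PC-5p-11132_163, also under 10 in all CON libraries, had 21.8, 10.6 and 18 normalized counts in LOS, against 0, 0 and 2.26 in CON (log2 difference 3.53, SE 0.68, adjusted p = 0.0113). PC-5p-9551_196 too was examined only because LOS was high. The call of the second did not hold without LOS1 or LOS3 (adjusted p 0.00265 to 0.108 over the 6 such fits).

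Summed by seed, 9 of 100 families with 2 or more entries were called (9%), 8 higher and 1 lower. The family of miR-192 and miR-215 summed to 568, 663 and 549 in LOS, against 169, 137 and 149.8 in CON (log2 difference 1.96, SE 0.11, adjusted p = 4.67e-06). That of miR-194 summed to 352, 359 and 371 in LOS, against 124, 120.5 and 119 in CON (1.57, SE 0.083, adjusted p = 4.61e-06). The groups lay far apart in both, and both calls held in every fit with 1 library left out. The 3p strands of miR-132 and miR-212 gave 0.70 (adjusted p = 0.000306) and those of miR-129 gave 0.57 (adjusted p = 0.000621), also in every such fit. The families of ssc-miR-24-1-5p (0.43, adjusted p = 0.0169), bta-miR-677_R+3_1ss13CT with hsa-miR-181b-3p (1.20, adjusted p = 0.0169), miR-1973 (3.95, adjusted p = 0.00848, both entries with the same values and examined only because LOS was high), ssc-miR-664-3p (0.33, adjusted p = 0.0386) and miR-545-3p (-0.39, adjusted p = 0.0169) lost their calls with at least 1 library left out. For these the adjusted p reached 0.0792 without LOS2, LOS3 or CON2 for miR-24-1-5p, 0.113 without LOS2 or LOS3 for miR-677, 0.0557 without LOS2 for miR-1973, 0.0698 without LOS2, CON1 or CON3 for miR-545-3p, and 0.149 for miR-664-3p, whose call was lost whichever library was left out.

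The difference between LOS and CON ran with sequence length. The median log2 difference was -0.35 over 31 entries of 18 nt, -0.27 over 35 of 19 nt, -0.047 over 37 of 20 nt, -0.044 over 106 of 21 nt and -0.019 over 270 of 22 nt. It was 0.056 over 132 of 23 nt, 0.13 over 37 of 24 nt, 0.21 over 10 of 25 nt and 0.66 over 4 of 26 nt, so it was higher at each added base. The lengths of 25 and 26 nt hold few entries, and from 18 to 24 nt the medians ran from -0.35 to 0.13. Calls made up 15.7% of the 51 longest sequences (24 to 26 nt), with 8 higher and 0 lower in LOS. At 21 to 23 nt they made up 5.91% of 508, with 24 higher and 6 lower. At 18 to 20 nt the share was 5.83% of 103, with 5 higher and 1 lower, against 6.65% over all lengths. The 2 calls at 25 nt are both names of miR-1973, 1 sequence with shared values that was examined only because LOS was high. The share among the longest sequences was therefore partly set by the filter and by that repeat. The short entries had lower CON levels (median 47.8, against 197 at 21 to 23 nt and 101 at 24 to 26 nt) and larger standard errors, whose part in the gradient was not tested. Entries of at least 60% GC had a median of -0.11 (117 entries) and the rest 0.012 (545 entries).

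**Figure D4:**
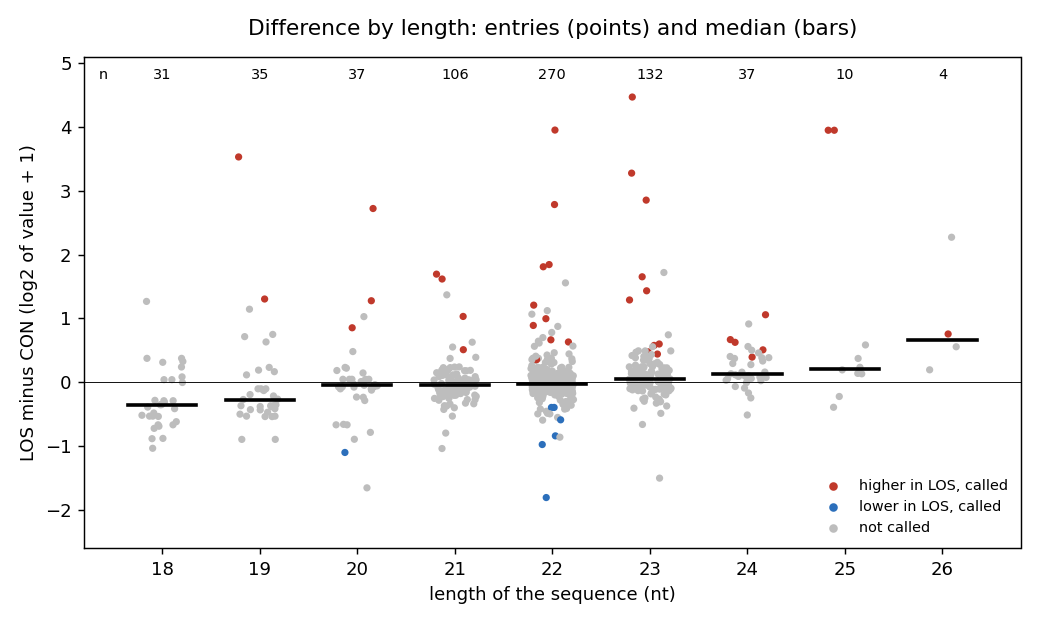
Difference between LOS and CON on the log2 scale (vertical) by sequence length in nt (horizontal) for 662 entries, each a point coloured by call, with a black bar at the median of each length and the number of entries above. The medians climb from -0.35 at 18 nt to 0.66 at 26 nt, and the blue called falls lie at 20 and 22 nt.

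The gradient was one of entries and hardly of reads. Sequences of 23 nt made up 51.5, 51.7 and 53.3% of the normalized total in LOS, against 47.5, 53.6 and 52.9% in CON, and those of 22 nt 30.2, 31.5 and 29.5% in LOS, against 33.2, 28.7 and 29.9% in CON. Sequences of 18 nt made up 0.138, 0.10 and 0.0976% in LOS, against 0.158, 0.169 and 0.115% in CON (exact permutation p = 0.2, two-sided). Of the 9 lengths only 26 nt was apart, at 0.00439, 0.00390 and 0.00434% in LOS and 0.00296, 0.00217 and 0.00246% in CON (exact permutation p = 0.1, and 3 against 3 libraries can give no smaller one). That length holds 6 entries in the whole table. With 1 library left out the number of lengths apart was 5 without LOS1, 3 without CON3, 2 without LOS2 or CON1, and 1 without LOS3 or CON2.

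The arm was taken from the name or, where the name gives none, from labelled entries of the same miRNA. Of 304 entries of 5p strands 20 rose and 2 fell (7.24% called, against 6.65% of all entries). Of 275 of 3p strands 8 rose and 5 fell (4.73%), and of 83 with no arm assigned 9 rose and 0 fell (10.8%). Entries with porcine names held 23 rises and 4 falls among 266 (10.2% called), human names 9 and 2 among 180 (6.11%), and names of other species 3 and 1 among 175 (2.29%). By level, against 6.65% called over all entries, there were 8 rises and 1 fall among 149 entries under 30 normalized counts (6.04% called), 8 rises and 1 fall among 140 of 30 to 100 (6.43%), 18 rises and 5 falls among 196 of 100 to 1000 (11.7%), 3 rises among 120 of 1000 to 10000 (2.5%), and 0 calls by limma among 57 above 10000, 3 of which had an unadjusted p under 0.05. The rises under 30 include miR-190b, miR-122, both names of miR-1973, ssc-mir-4332-p5_1ss18CA, PC-5p-11132_163 and ssc-miR-139-3p, all examined only because LOS was high. So were miR-200c, miR-141, miR-215 and PC-5p-9551_196 among the rises of 30 to 100. The fall under 30 is hsa-miR-26a-1-3p, examined only because CON was high. The shares called under 30 and at 30 to 100 were therefore partly set by the filter. Among entries above 10000 the median size of a difference was 0.080 and the median standard error 0.094. The absence of calls there thus went with small differences as well as with small errors.

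The 10 most abundant miRNAs of these cells did not pass. ssc-miR-27b-3p had 336268, 332454 and 332316 normalized counts in LOS, against 380994, 317150.0 and 348526 in CON (log2 difference -0.060, adjusted p = 0.784), and ssc-miR-143-3p, a miRNA of smooth muscle and stroma, had 346801, 325459 and 317827 normalized counts in LOS, against 345386, 372655 and 330646 in CON (-0.082, adjusted p = 0.661). ssc-miR-125b differed by 0.31 (adjusted p = 0.376), cgr-miR-22-3p by -0.18, ssc-miR-26a by -0.066, ssc-miR-29a_L-1 by 0.0062 and ssc-let-7a by -0.11, and miR-21, miR-27a and miR-23b are given above. Counts for the large families are read against the 6.65% called over all entries, from which a list of this size would hold few calls. Of 51 entries of the imprinted DLK1-DIO3 cluster 0 were called by limma (4 at an unadjusted p under 0.05), with a median of 0.034, and of 27 of miR-17-92 and its paralogs, which drive proliferation, 0 (1 at an unadjusted p under 0.05), with a median of 0.043. Among 24 let-7 entries 0 rose and 1 fell, with a median of -0.085. Of 15 entries of miR-15, miR-16, miR-424 and miR-503, which arrest the cell cycle, 0 were called by limma (4 at an unadjusted p under 0.05), with the lowest median of any list, -0.18, and ssc-miR-15a_R+1 (-0.25, adjusted p = 0.280) was under CON in all LOS libraries. Lists of miR-30, miR-181, miR-10, miR-103 with miR-107, miR-130 with miR-301, and miRNAs made without DROSHA held 42 entries and 0 calls by limma (4 at an unadjusted p under 0.05).

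Lists tied to oxidative stress were mixed. Of 16 entries that act on NRF2 or KEAP1, the pair that governs antioxidant genes, 2 rose (hsa-miR-141-3p_R+1 and hsa-miR-27a-5p) and 0 fell, with a median of 0.071 (12.5% called, against 6.65% of all entries), and the known role of miR-27a on that list is that of its main strand. hsa-miR-141-3p_R+1 is on it only because LOS was high. ssc-miR-144_R+1, which represses NRF2, had 22.4, 18.7 and 27.5 normalized counts in LOS, against 32.9, 61.6 and 30.7 in CON (log2 difference -0.78, adjusted p = 0.191). On the hypoxia list 0 of 4 were called by limma (0 at an unadjusted p under 0.05), and ssc-miR-210, the main target of HIF1A among miRNAs, had 2694, 2862 and 2643 normalized counts in LOS, against 2448, 3151 and 2486 in CON (0.029, adjusted p = 0.915). Of 9 entries on the neuronal list 3 rose and 0 fell, with a median of 0.38 (33.3% called, against 6.65% of all entries), and 8 had groups apart, in both directions, against 21.9% of all entries. The list holds miR-9, miR-128 and miR-129, among them the 3 names of miR-9-3p with shared values. Both miR-128 entries lay under CON in all LOS libraries without a call, ssc-miR-128 by -0.15 (adjusted p = 0.409) and mmu-miR-128-1-5p_R+2 by -0.66 (adjusted p = 0.188).

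**Figure D5:**
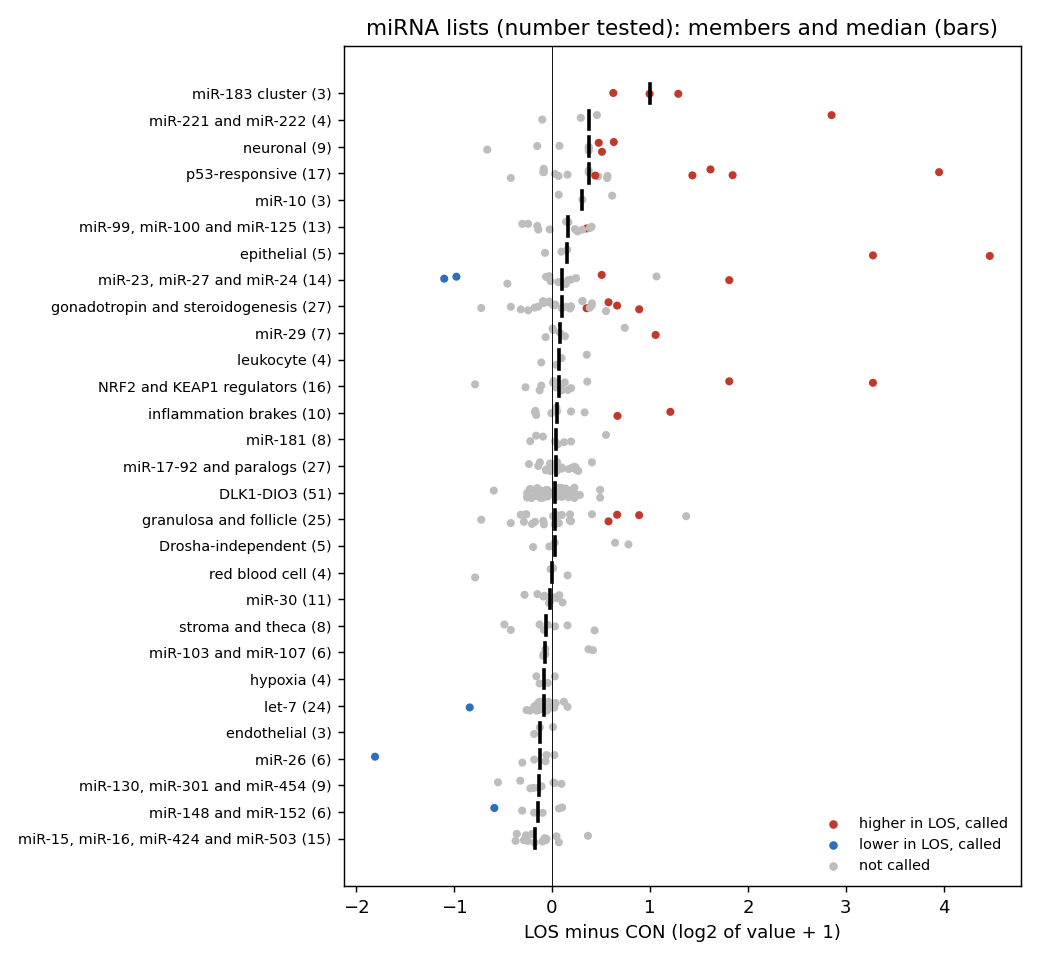
Difference between LOS and CON on the log2 scale (horizontal) for the examined entries of the miRNA lists with 3 or more of them (rows, ordered by median, with the number examined in brackets; the muscle list, with 2, is not drawn), each a point coloured by call, with a black bar at the list's median. The miR-183 cluster has the highest median, 0.996, and the list of miR-15, miR-16, miR-424 and miR-503 the lowest, -0.18.

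Markers of other cells that such a culture could hold were present. The epithelial entries, of which miR-200c and miR-141 were called, the neuronal entries and miR-122 of hepatocytes, also called, are given above. Red blood cell entries (4 examined, among them miR-451) summed to 254 to 285 in LOS and 251 to 323 in CON, leukocyte entries (4, with miR-142 and miR-223) to 2389 to 2821 in LOS and 2460 to 2678 in CON, and endothelial entries (3, miR-126) to 3123 to 3362 in LOS and 3181 to 3586 in CON. Stroma and theca entries (8, with miR-143 and miR-145) summed to 352571 to 376849 in LOS and 363181 to 399643 in CON, and muscle entries (2, miR-1 and miR-133a) to 1682 to 1989 in LOS and 1677 to 1720 in CON. Of the 21 entries in the red blood cell, leukocyte, endothelial, stroma and muscle lists 0 were called by limma, against 6.65% of all entries, and 2 had an unadjusted p under 0.05. Of the miRNAs used as granulosa markers, miR-21, miR-202 and miR-31 were all present, ssc-miR-31_R+1 with 24563, 26522 and 27784 normalized counts in LOS, against 26624, 28738 and 28433 in CON.

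Some low entries lay apart by 2-fold or more without passing. Upward these were bta-miR-677_R+3_1ss13CT (2.27, adjusted p = 0.144), ssc-miR-490_R+1 (1.72, adjusted p = 0.335), ssc-miR-202-3p_R+2, hsa-miR-4792_1ss9GT (1.27, adjusted p = 0.101) and hsa-miR-23a-5p. Downward they were mmu-miR-326-3p (-1.04, adjusted p = 0.207) and hsa-miR-4508_L+2R-1 (-1.03, adjusted p = 0.204). Of the 683 entries not examined, 175 were listed at 0 in all 6 libraries. A further 9 were above 0 in all LOS libraries and at 0 in all CON libraries, and 0 the other way round. A listed 0 allows a few reads, and the estimated depth was highest in LOS1 and lowest in CON1. The part of depth in these counts was not tested.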

How the data were processed

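Small RNA libraries of the PGCs were sequenced by the submitters, and the sources used here name their matching against miRBase hairpins of pig and other species. The deposited table gives normalized counts, a signal per sequence scaled by the authors and not raw reads. Neither the formula of that scaling nor a genome build is named in the sources used here. Values did not give whole reads back, so no count model was used. Groups came from the sample labels, 1 blank line was dropped, and entries of 10 or more in 3 or more of the 6 libraries were kept. Log2 of the value plus 1 was compared by limma 3.58.1 (trend, two-sided, Benjamini-Hochberg over all 662 entries, threshold 0.05) in R 4.3.3, with the spread from these 6 libraries. The sums of 100 seed families were fitted alike, and the 5p to 3p ratio of 148 hairpins by limma without the trend. Shares by length were compared by exact permutation. Scripts (Python 3.11.15, pandas 2.3.3, numpy 2.4.6, matplotlib 3.10.9) were tested on simulated data. Fold changes near 0 counts depend on the added 1. Precision at low values is set by depth, since 10 normalized counts stand for about 7.91 to 14.7 reads. The entries named are the 15 largest rises and 10 largest falls among the calls, their other strands and forms, the 10 most abundant entries, up to 4 members of each of 30 miRNA lists, called hairpins and families, and entries apart by 2-fold without a call; the other calls, the list members at 0 and a few relatives of called miRNAs were named after their values were seen. The members and lists were chosen with earlier results of these data known. Genes and neighbours within 10000 bases come from RefSeq on Sscrofa11.1, where 33 of 42 called entries with a reference name matched a gene.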

Additional observations from a re-analysis of the deposited data

Results flagged for a closer look

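In data outside the comparison, the libraries treated at 300 μM H2O2 (MOS), 79 entries that were under the limit of the 6 libraries had at least 10 normalized counts in all 3 MOS libraries. Of these, 63 were 18 to 20 nt long and 40 were listed at 0 in all 3 CON libraries. Their highest mean was 273.8 in MOS, and the highest CON mean among them was 11.8. No group of the comparison had more than 3 libraries, so none was examined for a single library far from the others.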

How the results depend on the processing

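Against 44 calls (37 higher, 7 lower), 19 were left with the spread from all 9 libraries (17 higher, 2 lower), and separate equal-variance fits for each miRNA, at unadjusted p and 2-fold, gave 25 (22 higher, 3 lower). Without the low-value filter 4 were lower, with variants of a name and arm summed 3 were lower, and with a replicate block 33 were called (30 higher, 3 lower). Leaving out 1 library gave 25 to 34 calls, 22 to 31 higher and 2 to 5 lower. The 4 called arm ratios became 9 with the replicate block and 2 to 6 with 1 library left out. The 9 called families became 4 with the block and 4 to 10 with 1 library left out, and the 1 length apart became 1 to 5. The counts for limma without trend (37), equal library totals (39), median-of-ratios factors (44), a pseudocount of 0.5 (40) or 10 (49), a minimum of 50 (35), predicted candidates left out (43) and 1 entry per value set (43) stayed within 1.5 times. Equal library totals moved the median of all entries to -0.032. No called entry changed direction under any setting run. Whether the replicate numbers pair the libraries was not stated. Same-numbered libraries deviated with correlations of -0.10, -0.086 and 0.070, and these values cannot exclude pairing. With the block 12 of the 44 calls were lost and 32 kept, so those 12 depend on whether pairing is assumed. The planned count models were not run, because the values did not give whole reads back. At low values the depth limits the comparison, since a listed 0 still allows a few reads.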
